A study of Mus musculus with 6 samples.

Results

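The genes described here are the mouse amino acid transporters of 7 solute carrier families: Slc1a, Slc3a, Slc6a, Slc7a, Slc36a, Slc38a and Slc43a. They were chosen by name, as every protein-coding gene whose symbol carries one of these family prefixes followed by a number. The rule found 62 genes among the 45706 gene identifiers of the count table, of which 21519 are protein-coding: 7 of Slc1a, 2 of Slc3a, 21 of Slc6a, 14 of Slc7a, 4 of Slc36a, 11 of Slc38a and 3 of Slc43a. It leaves out Slc7a6os, a gene named for its place on the strand opposite Slc7a6, and 1 Slc7a carrier that is not analysed here. The rule uses names and no measured value, but it was chosen with earlier results of these data known.

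Amino acids cross membranes through these carriers, which differ in what they carry and in what drives the transport. Slc1a, Slc6a and Slc38a proteins mostly use the sodium gradient, Slc36a proteins use protons, Slc43a proteins work by facilitated diffusion, and several Slc7a proteins exchange 1 amino acid for another while bound to the heavy chain Slc3a2 (CD98). Some carriers sit on the lysosome, where they release amino acids from digested protein, and lysosomal amino acids are read by the kinase complex mTORC1. In marrow, erythroid precursors import glycine and other amino acids for haem and globin synthesis, and macrophages take up arginine, glutamine and taurine.

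The data were read counts per gene from 6 RNA-seq libraries of mouse bone marrow. The 2 control libraries are labelled as marrow cultures in control medium, and each of the other 4 as a culture in medium conditioned by a different VpR cell line, VpR83, VpR99, VpR126 or VpR2020. VpR lines come from a mouse model of clear cell renal cell carcinoma (ccRCC) that resists combined anti-PD-1 and anti-CTLA-4 therapy, per the series title. The labels give no genotype, strain, age, dose or culture time, and do not say whether the libraries came from separate animals, so a p-value here reflects the spread of these 6 libraries, which may be technical. In the series' design text the comparator is marrow freshly isolated, whereas the labels give control medium; if the controls were uncultured, culture and conditioned medium cannot be told apart. In the count table, the headings of the controls name bone marrow and no medium, whereas the other 4 name conditioned medium. The headings also add tags to 3 of the 4 line names: Ctrl to VpR83, T1 to VpR99 and LT2 to VpR126. The labels do not explain these tags. The 4 lines have 1 library each and were treated as 4 replicates of conditioned medium, so differences between lines have no replicate check.

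Library totals ran from 18629708 to 129120559 counts, the largest being VpR99, and a count of 0 allowed a level of up to 0.0232 to 0.161 CPM (counts scaled to library size; 3 counts of the library total, for counting error only). Markers of cell types differed between the groups. All 10 macrophage markers tested were higher in conditioned medium, with a summed level of 474 to 494 CPM in the controls and 6637 to 15888 CPM in conditioned medium. Of 14 erythroid markers, 13 were lower, with sums of 2991 to 6389.8 and 77.0 to 387 CPM, and Slc4a1, Car1 and Rhag were at 0 in every conditioned library; Tfrc, the marker not called, made up most of the conditioned sums (74.6 to 381 CPM). Neutrophil markers (8 of 10 lower; 79935 to 87669 against 3156 to 16956 CPM), T and NK cell markers (9 of 10 lower; 159.7 to 171 against 10.5 to 44.0 CPM), B cell markers (6 of 8 lower; 1016 to 1178 against 43.4 to 362 CPM) and stromal and endothelial markers (6 of 8 lower; 116 to 133 against 16.6 to 46.4 CPM) were lower in conditioned medium. Of 8 epithelial markers, a check for carried-over tumour cells, 5 were tested and 3 were lower, with sums of 20.7 to 22.6 and 3.71 to 18.1 CPM; Krt8 and Krt19 were at 0 in every conditioned library. In bulk RNA, fewer cells of a type and less RNA per cell cannot be told apart, and the part of these marker shifts in the transporter results was not tested.

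Of the 62 transporters, 33 had enough counts to be tested. At an adjusted p under 0.05 (edgeR quasi-likelihood test, Benjamini-Hochberg adjustment over 15141 genes), 14 were higher in conditioned medium, 8 were lower and 11 were not called. Of all genes tested, 22.5% were called higher, 19.7% lower and 42.2% in either direction, so the share of transporters called lower was close to that of all genes and the share called higher was above it. The median log2 fold change of the 33 transporters was 0.83, against -0.01 over all genes tested, and the median size of change was 2.20 against 0.77. Every conditioned library lay above both controls for 14 transporters and below both for 9, where the background was 32.0% and 33.3% of all genes. Of the 22 called transporters, 20 differed by more than 2-fold, 8 rose by more than 8-fold and 4 fell by more than 8-fold. Only 3 of the 33, Slc1a3, Slc38a5 and Slc6a20a, passed the filter on low counts through the controls alone, so these 3 were tested because they were high there.

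**Figure D1:**
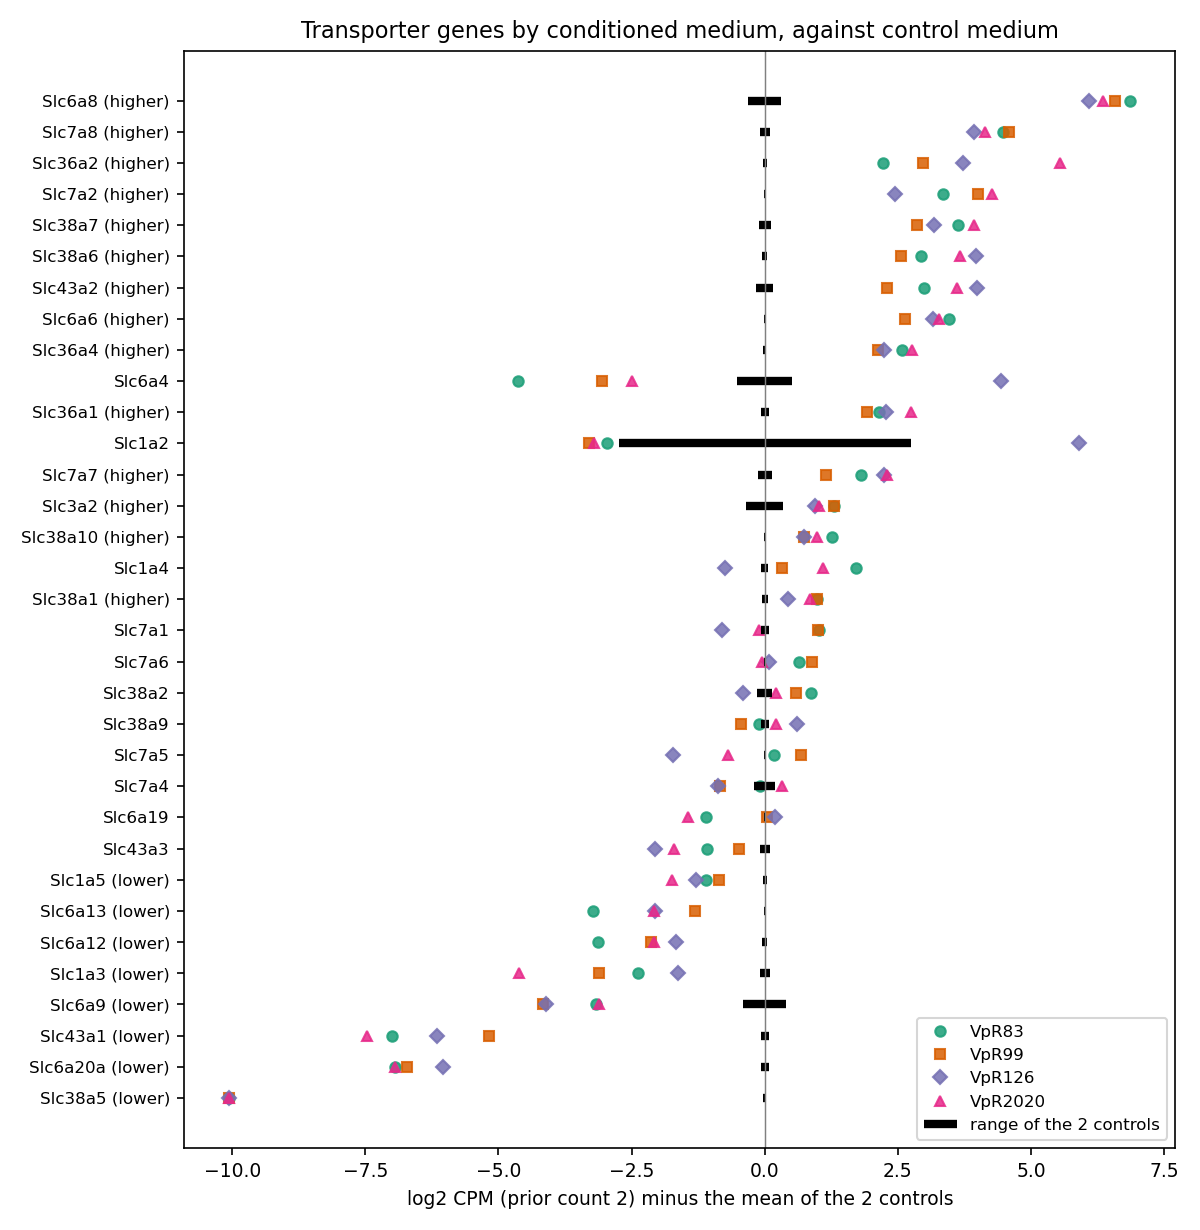
Log2 difference of each conditioned library from the mean of the 2 controls (x axis, log2 CPM with a prior count of 2) for the 33 tested transporters (y axis, in order of log2 fold change, with the call), with 1 point per VpR line and black bars for the range of the 2 controls. Slc6a8 and Slc7a8 lie far to the right in all 4 lines, Slc38a5 and Slc43a1 far to the left, and the lines are furthest apart for Slc1a2 and Slc6a4.

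To compare carriers with each other, levels were expressed as CPM per kilobase of exon. On this scale, the summed level of all 62 transporters was 261 and 238 in the controls and 608 (VpR83), 502 (VpR99), 541 (VpR126) and 578 (VpR2020) in conditioned medium. The means were 249.7 ± 16.4 (SD, n = 2) and 557 ± 46.0 (SD, n = 4), a log2 ratio of 1.16, or 0.92 when scaled by library totals only. The order of the carriers changed as well. In the controls the highest level was that of Slc1a5, followed by Slc3a2 and Slc43a3. In conditioned medium it was that of Slc6a6, followed by Slc43a2, Slc3a2 and Slc7a8, which had been in places 10, 2 and 14 in the controls. Slc43a2, Slc3a2 and Slc7a8 did not differ from each other in conditioned medium beyond their spread, at 71.1 ± 33.3, 67.2 ± 8.79 and 64.4 ± 13.1 CPM per kilobase. By family, the Slc1a share of the summed level was 18.6 ± 0.428% in the controls and 3.89 ± 1.09% in conditioned medium, and the Slc38a share was 25.8 ± 0.828% and 16.8 ± 1.59%. The Slc6a share was 9.26 ± 0.491% and 25.3 ± 3.36%. The Slc36a share was 3.46 ± 0.347% and 8.23 ± 1.95%, and the Slc7a share was 12.9 ± 0.969% and 18.9 ± 5.11%. The groups did not overlap for any of these families, whereas the ranges of the Slc3a and Slc43a shares overlapped.

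**Figure D2:**
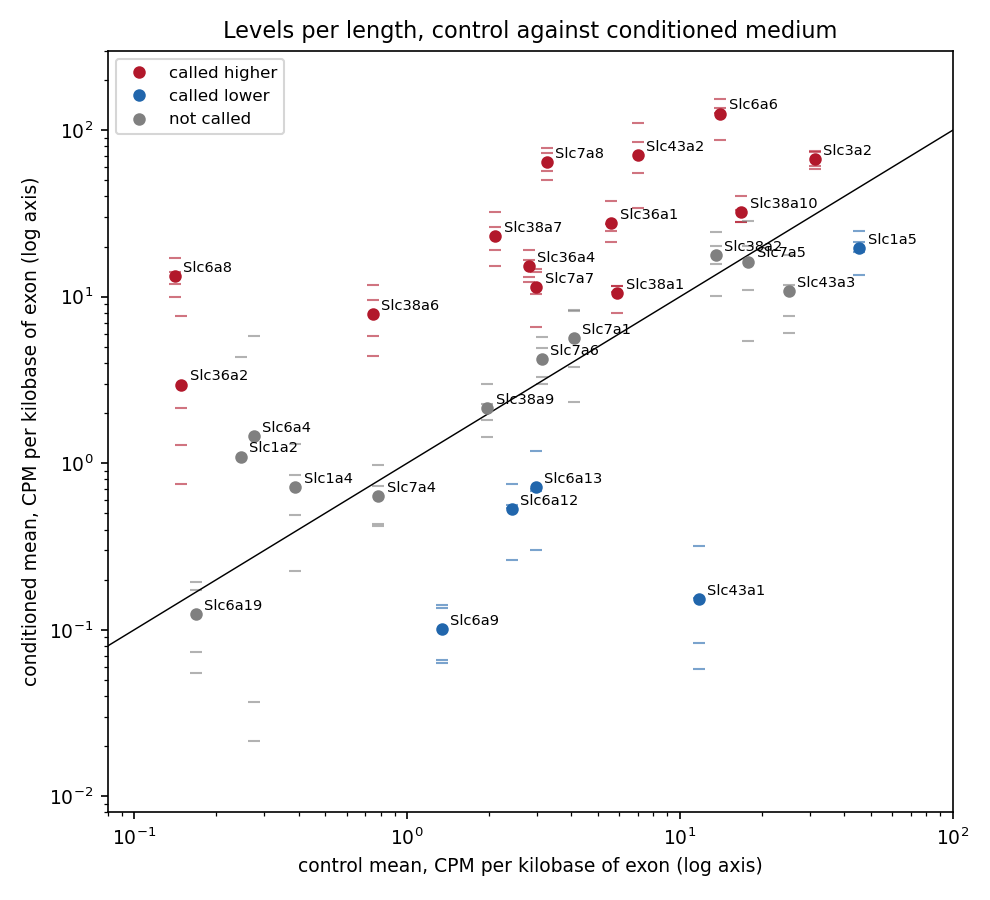
Levels per length (CPM per kilobase of exon, log axes) of 29 transporters: control mean on the x axis and conditioned mean on the y axis (points, coloured by call), with a dash for each conditioned library and a line of equal levels. Slc1a5 lies furthest right and Slc6a6 highest; the other transporters, and libraries below the axis, are not drawn.

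Among the heterodimeric exchangers, the heavy chain Slc3a2 and the light chains Slc7a8 and Slc7a7 rose, whereas Slc7a5 and Slc7a6 were not called. Slc7a8, on chromosome 14, 54722209 to 54781946 (GRCm38), carries large and small neutral amino acids. Its level was 15.2 and 17.3 CPM in the controls and 363 (VpR83), 391 (VpR99), 249.7 (VpR126) and 285 CPM (VpR2020) in conditioned medium. All 4 conditioned libraries were far above both controls, by 4.31 ± 0.28 on the log2 scale (edgeR adjusted p = 0.00034). Slc3a2, on chromosome 19, 8706882 to 8723369, had 136 and 84.1 CPM in the controls and 262 (VpR83), 265 (VpR99), 205 (VpR126) and 216 CPM (VpR2020) in conditioned medium. The 2 controls differed more from each other than for most carriers, but every conditioned library was above both (log2 fold change 1.11 ± 0.24, edgeR adjusted p = 0.013). Slc7a7, which exchanges cationic for neutral amino acids, had 8.96 and 10.8 CPM in the controls and 34.4 (VpR83), 21.8 (VpR99), 46.4 (VpR126) and 48.5 CPM (VpR2020) in conditioned medium (log2 fold change 1.94 ± 0.37, edgeR adjusted p = 0.0081). Slc7a5, on chromosome 8, 121881150 to 121907694, the exchanger of large neutral amino acids best known from dividing cells, had 66.7 and 65.2 CPM in the controls and 74.6 (VpR83), 106 (VpR99), 20.1 (VpR126) and 40.7 CPM (VpR2020) in conditioned medium. Its conditioned libraries lay on both sides of the controls, and the difference was not called (log2 fold change -0.13 ± 0.59, edgeR adjusted p = 0.88). The same held for Slc7a6, another exchanger of cationic and neutral amino acids, with 14.1 and 14.4 CPM in the controls and 22.4 (VpR83), 26.3 (VpR99), 15.1 (VpR126) and 13.7 CPM (VpR2020) in conditioned medium (log2 fold change 0.45 ± 0.30, edgeR adjusted p = 0.26).

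The make-up of the light chains differed between the groups. Over Slc7a5, Slc7a6, Slc7a7, Slc7a8 and Slc7a10, Slc7a5 made up 67.1% and 64.1% of the summed level per kilobase in the controls and 18.6 (VpR83), 24.0 (VpR99), 7.45 (VpR126) and 12.8% (VpR2020) in conditioned medium. Slc7a8 made up 11.3% and 12.6% in the controls and 67.2, 65.6, 68.7 and 66.6% in the same order of lines. Thus the Slc7a8 share was 67.0 ± 1.32% (SD, n = 4) with little spread between lines. The summed level of the light chains, relative to library size, went from 27.1 ± 0.440 (SD, n = 2) to 96.3 ± 21.0 CPM per kilobase (SD, n = 4). The ratio of Slc3a2 to the light chains was 1.44 and 0.868 in the controls and between 0.632 and 0.802 in conditioned medium, below both controls in each line. The call of Slc3a2 was lost without control replicate 2 (edgeR adjusted p = 0.089; range 0.00027 to 0.089 over 13 alternatives) and that of Slc7a7 when either control was left out (0.077 and 0.057; range 5.4e-06 to 0.077). Slc7a7 shares exon sequence with Oxa1l on the opposite strand, which was not called, and the strand setting of the counting is not given in the sources used here.

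**Figure D3:**
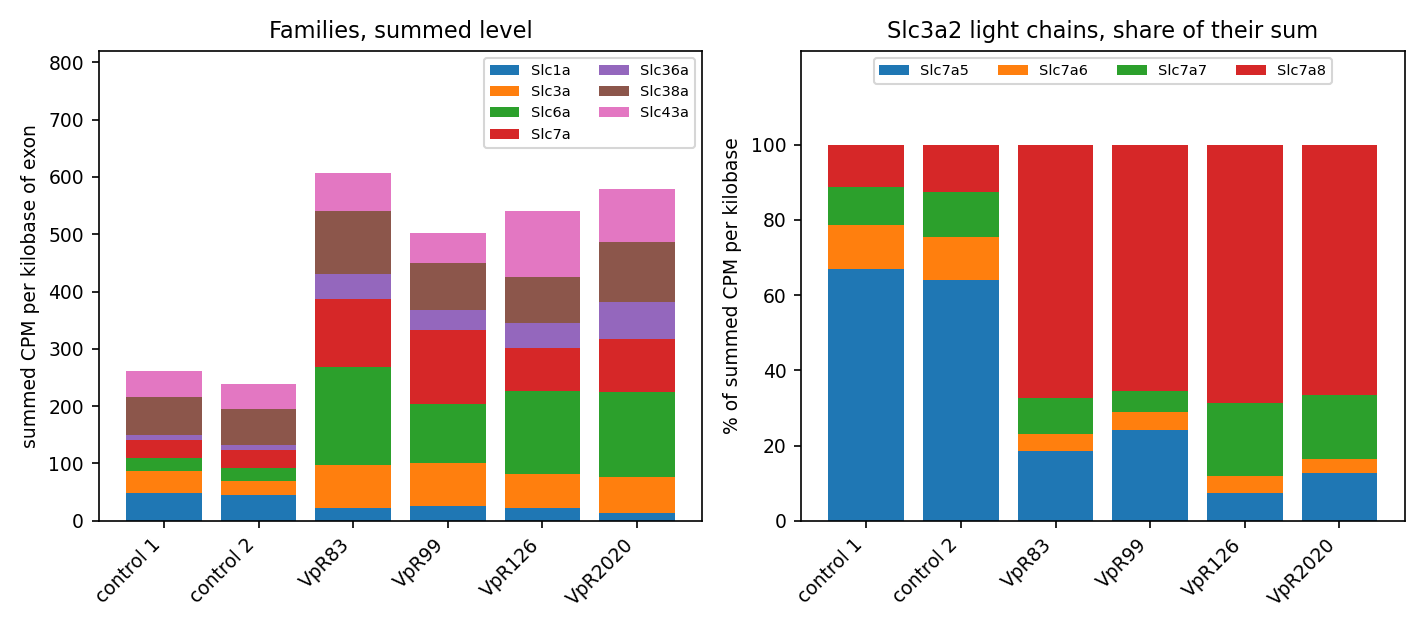
Left, the summed level of each family in each library (stacked bars, CPM per kilobase of exon); right, the share of each Slc3a2 light chain in the light chain sum, in percent. Slc7a5 is the largest light chain share in both controls and Slc7a8 in all 4 conditioned libraries.

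Of the cationic carriers that work without a heavy chain, Slc7a2 rose and Slc7a1 was not called. Slc7a2 supplies arginine to activated macrophages and had 0.833 and 0.846 CPM in the controls and 9.04 (VpR83), 14.2 (VpR99), 4.82 (VpR126) and 17.0 CPM (VpR2020) in conditioned medium. Every line was above both controls (log2 fold change 3.74 ± 0.62, edgeR adjusted p = 0.0051), at a low level throughout. Slc7a1, the more widely expressed arginine and lysine carrier, had 49.6 and 44.8 CPM in the controls and 95.3 (VpR83), 94.7 (VpR99), 27.0 (VpR126) and 43.6 CPM (VpR2020) in conditioned medium: VpR83 and VpR99 were above the controls, VpR126 and VpR2020 below (log2 fold change 0.47 ± 0.53, edgeR adjusted p = 0.5). Per kilobase, Slc7a2 stayed below Slc7a1 in every library. Slc7a4, a relative of these carriers, had 2.80 and 3.71 CPM in the controls and 3.04 (VpR83), 1.79 (VpR99), 1.73 (VpR126) and 4.04 CPM (VpR2020) in conditioned medium and was not called (log2 fold change -0.30 ± 0.45, edgeR adjusted p = 0.6). The call of Slc7a2 was lost when either control was left out (edgeR adjusted p = 0.053 and 0.051; range 6.9e-10 to 0.053).

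All 3 tested proton-coupled carriers rose. Slc36a1, on chromosome 11, 55204350 to 55236330, exports small neutral amino acids from lysosomes and had 30.0 and 33.1 CPM in the controls and 139.9 (VpR83), 120.0 (VpR99), 153 (VpR126) and 211 CPM (VpR2020) in conditioned medium. The groups were well apart (log2 fold change 2.30 ± 0.27, edgeR adjusted p = 0.0016). Slc36a4 had 18.6 and 18.0 CPM in the controls and 109 (VpR83), 80.4 (VpR99), 86.2 (VpR126) and 124 CPM (VpR2020) in conditioned medium (log2 fold change 2.45 ± 0.23, edgeR adjusted p = 0.001). Slc36a2 was near the detection limit in the controls and had 0.500 and 0.470 CPM in the controls and 2.45 (VpR83), 4.17 (VpR99), 7.01 (VpR126) and 25.0 CPM (VpR2020) in conditioned medium. Its lines were spread widely, with VpR2020 highest (log2 fold change 4.30 ± 1.17, edgeR adjusted p = 0.027; 3.23 without VpR2020), and its call was lost when either control was left out, with voom and without the filter on low counts (edgeR adjusted p = 0.15, 0.15 and 0.064, limma-voom adjusted p = 0.084; range 1.3e-05 to 0.15). The fourth member, Slc36a3, had at most 30 counts in a library and was not tested.

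Promoter windows of 300 bases (250 before to 50 after each RefSeq start, GRCm38.p6) were matched for 44 of the 62 transporters, 65 windows in all. They were searched on both strands for the core of the element bound by the lysosomal regulator TFEB and its relatives, TCACGTGA, which 320 of 32851 windows held (0.974%). Among the transporter windows, 1 held it (1.54%), that of Slc36a1, at chr11:55204090-55204389 on the plus strand, beginning at position -4 from the start. It is shown because Slc36a1 is a lysosomal carrier that rose in every line, with the motif in capitals:
Slc36a1: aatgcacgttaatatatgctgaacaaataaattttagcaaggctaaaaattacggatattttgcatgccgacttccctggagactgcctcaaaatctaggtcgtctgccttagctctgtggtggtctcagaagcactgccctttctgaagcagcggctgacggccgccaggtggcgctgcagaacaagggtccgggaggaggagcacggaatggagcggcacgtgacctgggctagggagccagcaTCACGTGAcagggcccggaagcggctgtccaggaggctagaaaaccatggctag
The match is a description of the letters, not a measured binding site. In the gene lists described below, TCACGTGA was in 0 of 25 windows for amino acid sensing. It was in 0 of 20 for the amino acid response and 0 of 25 for the other carriers.

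Among the sodium-coupled Slc38a carriers, 4 rose, 1 fell and 2 were not called. The largest rises were those of Slc38a7, the lysosomal exporter of glutamine and asparagine on chromosome 8, 95835920 to 95853539, and its relative Slc38a6. Slc38a7 had 8.07 and 9.40 CPM in the controls and 108 (VpR83), 63.4 (VpR99), 79.3 (VpR126) and 134 CPM (VpR2020) in conditioned medium (log2 fold change 3.46 ± 0.37, edgeR adjusted p = 0.0014). Slc38a6 had 5.63 and 6.02 CPM in the controls and 45.1 (VpR83), 34.3 (VpR99), 92.0 (VpR126) and 74.8 CPM (VpR2020) in conditioned medium (log2 fold change 3.40 ± 0.48, edgeR adjusted p = 0.0031). Neither gene's groups came near each other. Slc38a9, the lysosomal arginine sensor that signals to mTORC1, had 34.6 and 31.2 CPM in the controls and 30.6 (VpR83), 24.1 (VpR99), 50.2 (VpR126) and 38.1 CPM (VpR2020) in conditioned medium: the lines fell on both sides of the controls, and it was not called (log2 fold change 0.12 ± 0.30, edgeR adjusted p = 0.76), with a direction that turned under 2 of the scalings. Slc38a10 had 109 and 107 CPM in the controls and 259 (VpR83), 181 (VpR99), 179 (VpR126) and 213 CPM (VpR2020) in conditioned medium (log2 fold change 0.95 ± 0.20, edgeR adjusted p = 0.011). Slc38a1, a plasma membrane importer of glutamine and other small neutral amino acids, had 97.7 and 106 CPM in the controls and 201 (VpR83), 199.6 (VpR99), 138 (VpR126) and 184 CPM (VpR2020) in conditioned medium (log2 fold change 0.83 ± 0.20, edgeR adjusted p = 0.017). Both rises were under 2-fold, with every line above both controls. Slc38a2, the related importer induced by amino acid shortage, had 131 and 109 CPM in the controls and 218 (VpR83), 179 (VpR99), 89.6 (VpR126) and 139 CPM (VpR2020) in conditioned medium and was not called (log2 fold change 0.38 ± 0.35, edgeR adjusted p = 0.4). The calls of Slc38a1 and Slc38a10 were lost when either control was left out (edgeR adjusted p = 0.13 and 0.094 for Slc38a1, 0.091 and 0.086 for Slc38a10), and that of Slc38a1 also with scaling by library totals only (0.061); over 13 alternatives the adjusted p ranged from 0.0015 to 0.13 for Slc38a1 and from 0.00035 to 0.091 for Slc38a10.

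Slc1a5, the exchanger of glutamine and other neutral amino acids and the highest carrier per kilobase in the controls, fell. Slc1a5, on chromosome 7, 16781340 to 16798274, had 195 and 185 CPM in the controls and 88.5 (VpR83), 104 (VpR99), 77.3 (VpR126) and 56.6 CPM (VpR2020) in conditioned medium. All 4 lines were below both controls (log2 fold change -1.22 ± 0.24, edgeR adjusted p = 0.0084); when either control was left out the call was lost (edgeR adjusted p = 0.064 and 0.06; range 6.3e-05 to 0.064). Its level per kilobase was 45.5 ± 1.58 (SD, n = 2) and 19.6 ± 4.80 (SD, n = 4), and its place among the carriers went from 1 to 8. Slc1a3, a glutamate carrier, had 1.23 and 1.08 CPM in the controls and 0.183 (VpR83), 0.0892 (VpR99), 0.338 (VpR126) and 0 CPM (VpR2020) in conditioned medium and also fell (log2 fold change -2.95 ± 0.78, edgeR adjusted p = 0.025; -3.54 without VpR126), at levels near the detection limit in conditioned medium; its call was lost when either control or VpR99 was left out (edgeR adjusted p = 0.14, 0.11 and 0.051; range 0.0055 to 0.14). Slc1a4, a carrier of serine, alanine and cysteine, had 1.60 and 1.46 CPM in the controls and 5.13 (VpR83), 1.92 (VpR99), 0.887 (VpR126) and 3.32 CPM (VpR2020) in conditioned medium and was not called (log2 fold change 0.87 ± 0.69, edgeR adjusted p = 0.34).

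Of the Slc6a carriers, 8 were tested: Slc6a6 and Slc6a8 rose, 4 fell and 2 were not called. Slc6a8, the creatine carrier on chromosome X, 73673150 to 73682502, had 0.900 and 0.564 CPM in the controls and 88.7 (VpR83), 73.2 (VpR99), 51.7 (VpR126) and 62.3 CPM (VpR2020) in conditioned medium. It went from near the detection limit to 51.7 CPM or more in every line, and its log2 fold change of 6.53 ± 0.38 had the smallest adjusted p of the 33 transporters (edgeR adjusted p = 0.00027). Slc6a6, the taurine carrier on chromosome 6, 91684053 to 91759066, had 118 and 120.1 CPM in the controls and 1306 (VpR83), 737 (VpR99), 1071 (VpR126) and 1147 CPM (VpR2020) in conditioned medium (log2 fold change 3.16 ± 0.29, edgeR adjusted p = 0.00094). Its controls were almost equal and its lowest line, VpR99, was far above them. At 126 ± 28.3 CPM per kilobase (SD, n = 4), against 14.1 ± 0.172 (SD, n = 2) in the controls, Slc6a6 was the highest carrier in conditioned medium, where it made up 22.4 ± 3.49% of the summed level (SD, n = 4) against 5.65 ± 0.439% in the controls (SD, n = 2). Both calls held in all 13 alternatives.

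The neighbours Slc6a12 and Slc6a13, carriers of betaine and GABA that lie side by side on chromosome 6, both fell. Slc6a12, at 121343076 to 121365775, had 7.17 and 7.61 CPM in the controls and 0.805 (VpR83), 1.65 (VpR99), 2.28 (VpR126) and 1.71 CPM (VpR2020) in conditioned medium (log2 fold change -2.20 ± 0.41, edgeR adjusted p = 0.0074). Slc6a13, at 121300227 to 121337733, had 8.50 and 8.69 CPM in the controls and 0.879 (VpR83), 3.43 (VpR99), 2.03 (VpR126) and 1.99 CPM (VpR2020) in conditioned medium (log2 fold change -2.03 ± 0.48, edgeR adjusted p = 0.017). In both, VpR83 was the lowest line and all lines were below the controls. Both calls were lost when either control was left out (edgeR adjusted p = 0.052 and 0.058 for Slc6a12, range 2.8e-06 to 0.058; 0.089 and 0.093 for Slc6a13, range 0.00042 to 0.093). Slc6a19, a carrier of neutral amino acids best known from gut and kidney, had 0.833 and 0.846 CPM in the controls and 0.366 (VpR83), 0.867 (VpR99), 0.972 (VpR126) and 0.277 CPM (VpR2020) in conditioned medium and was not called (log2 fold change -0.40 ± 0.57, edgeR adjusted p = 0.6).

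The Slc43a carriers of branched-chain and other large neutral amino acids moved in opposite directions. Slc43a2, on chromosome 11, 75531694 to 75577575, had 62.7 and 78.3 CPM in the controls and 557 (VpR83), 342 (VpR99), 1106 (VpR126) and 853 CPM (VpR2020) in conditioned medium. Every line was well above both controls (log2 fold change 3.34 ± 0.54, edgeR adjusted p = 0.0048), and VpR126 was highest. Slc43a1 had 70.8 and 63.5 CPM in the controls and 0.476 (VpR83), 1.82 (VpR99), 0.887 (VpR126) and 0.332 CPM (VpR2020) in conditioned medium and fell (log2 fold change -6.13 ± 0.60, edgeR adjusted p = 0.0011; log2 fold change -6.86 without VpR99). The log2 ratio of Slc43a2 to Slc43a1 per kilobase was -0.99 and -0.51 in the controls and between 6.75 and 10.51 in the lines, so the more abundant of the pair changed in every line. Slc43a3, which carries purine nucleobases rather than amino acids, had 119 and 105 CPM in the controls and 52.7 (VpR83), 79.7 (VpR99), 27.0 (VpR126) and 34.1 CPM (VpR2020) in conditioned medium: each line was below both controls, but it was not called (log2 fold change -1.21 ± 0.41, edgeR adjusted p = 0.055). It was called lower in 7 of the 13 alternatives (range 0.011 to 0.21 of the adjusted p), and the call of Slc43a2 was lost without control replicate 1 (edgeR adjusted p = 0.055; range 5.4e-11 to 0.055).

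Slc38a5, Slc6a20a, Slc6a9 and Slc43a1 had the largest falls. Slc38a5 and Slc6a20a passed the filter on low counts through the controls alone, so they were tested because they were high there. The erythroid, neutrophil, T and NK cell, B cell and stromal and endothelial markers given above were lower in the same comparison. Slc38a5, a carrier of glutamine, histidine and other neutral amino acids on chromosome X, 8271133 to 8280179, had 53.1 and 51.3 CPM in the controls (1592 and 1091 counts) and 0 counts in all 4 conditioned libraries. Against 3 counts over the conditioned group, it was at least 3355-fold lower in conditioned medium, or at least 1204-fold lower without VpR99, the deepest library (edgeR adjusted p = 0.00062). Slc6a20a, a proline carrier, had 6.33 and 5.69 CPM in the controls and 2 counts in all over the 4 lines, 1 each in VpR99 and VpR126, a level 583-fold lower (counting interval 160 to 4839; edgeR adjusted p = 0.00054). The ratio was 1023 without VpR126 (counting interval 182 to 40546) and 419 without VpR99 (counting interval 74.6 to 16595). Slc6a20a shares exon sequence with Ccr9 on the opposite strand, which also fell (log2 fold change -2.90, edgeR adjusted p = 0.019). Slc6a9, the glycine carrier that supplies haem synthesis, had 8.80 and 4.98 CPM in the controls and 0.696 (VpR83), 0.324 (VpR99), 0.338 (VpR126) and 0.719 CPM (VpR2020) in conditioned medium (log2 fold change -3.76 ± 0.48, edgeR adjusted p = 0.0021). The calls of these 4 carriers held in all 13 alternatives, and the part of each of these cell types in them was not tested.

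The lines also differed among themselves. The median range between lines was 1.20 on the log2 scale for the 33 tested transporters and 0.78 for all genes tested, whereas the controls differed by a median of 0.15 and 0.18. The line range spans 4 libraries and the control range 2. A range tends to widen with more libraries, so the line and control ranges are not like measures. VpR126 was the lowest line for 12 of the 33 transporters, 36.4%, where it was lowest for 31.6% of all genes. It was also the highest line for 9 of them, 27.3%, against 31.7% of all genes. For 4 carriers, VpR83 and VpR99 were above both controls while VpR126 was below both: Slc7a5, Slc7a1, Slc38a2 and Slc1a4. This pattern, chosen after the values were seen, was found in 3.86% of all genes tested. VpR126 had 20.1 CPM of Slc7a5 against 106 in VpR99, 27.0 CPM of Slc7a1 against 95.3 in VpR83, 89.6 CPM of Slc38a2 against 218 in VpR83, and 0.887 CPM of Slc1a4 against 5.13 in VpR83. None of the 4 was called between the groups. VpR2020 lay below VpR83 for each of them.

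**Figure D4:**
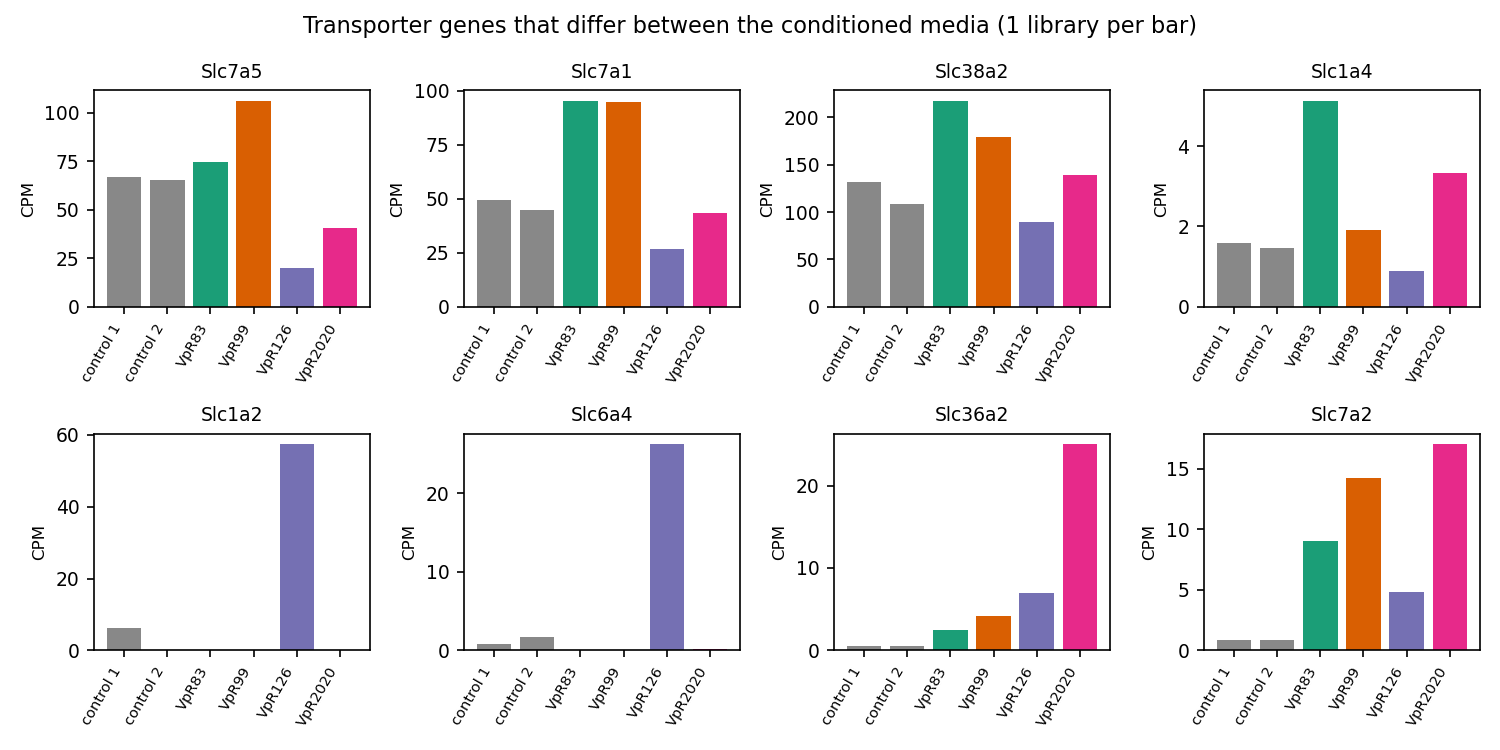
CPM (linear axes from 0) in each of the 6 libraries, 1 bar each, for 8 transporters whose lines differ. In VpR126, Slc7a5, Slc7a1, Slc38a2 and Slc1a4 lie below the controls and all other lines, and Slc1a2 and Slc6a4 far above the other lines; Slc36a2 and Slc7a2 are highest in VpR2020.

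The amino acid response, in which the kinase Eif2ak4 (GCN2) senses uncharged tRNA and the factor Atf4 induces importers and synthesis enzymes, was described with a list of 18 genes. Of these, 2 were called higher, 1 lower and 15 were not called, with a median log2 fold change of -0.01. That was 11.1% higher and 5.56% lower, against 22.5% and 19.7% of all genes tested. The called genes were Nupr1, a stress-induced chromatin protein (log2 fold change 1.65 ± 0.44, edgeR adjusted p = 0.026), Eif2ak4 itself (log2 fold change 1.04 ± 0.25, edgeR adjusted p = 0.017) and Ddit4, an inhibitor of mTORC1 signalling (log2 fold change -1.002 ± 0.27, edgeR adjusted p = 0.026). All 3 calls were lost in some leave-one-out fits: Nupr1 without control replicate 1 (edgeR adjusted p = 0.14, range 0.0011 to 0.14 over the alternatives; log2 fold change 2.34 without control replicate 2), Eif2ak4 without control replicate 1 or 2 (0.11 in each, range 0.0017 to 0.11), and Ddit4 without control replicate 1 or 2, VpR83 or VpR2020 (0.22, 0.06, 0.058 and 0.053, range 0.0037 to 0.22). Without VpR126 the list had 4 genes higher and 2 lower. VpR126 was the lowest line for 12 of the 18 genes, and for 31.6% of all genes tested. It was also lowest for Slc7a5, Slc7a1, Slc38a2 and Slc1a4, but these were picked as low in VpR126 and add nothing to that count. Asns, the asparagine synthetase, and Phgdh, which starts serine synthesis, were picked to show low levels in VpR126 after their values were seen. Asns had 64.6 and 72.2 CPM in the controls and 42.3 (VpR83), 31.9 (VpR99), 6.42 (VpR126) and 34.0 CPM (VpR2020) in conditioned medium, and was not called (log2 fold change -1.25 ± 0.62, edgeR adjusted p = 0.14), but was called lower without VpR126 (log2 fold change -0.91, edgeR adjusted p = 0.0085; range 0.0085 to 0.36 over the alternatives). Phgdh had 83.2 and 86.8 CPM in the controls and 56.2 (VpR83), 73.2 (VpR99), 15.7 (VpR126) and 44.3 CPM (VpR2020) in conditioned medium and was not called (log2 fold change -0.84 ± 0.52, edgeR adjusted p = 0.22). Both had every line below the controls, with VpR126 the lowest.

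The same promoter windows were searched on both strands for TGATGNAA, the core of the amino acid response element (C/EBP-ATF), which 1304 of 32851 windows held (3.97%). It was in the windows of 6 of 17 matched genes of the response list (Asns, Atf3, Chac1, Nupr1, Trib3 and Vldlr) and in 4 of 65 transporter windows (6.15%), of 3 carriers: Slc1a4, Slc7a7 and Slc6a21, of which the last was not tested. The matching windows of Slc7a7 overlap and share the TGATGCAA site, so this site is counted more than once in the 6.15%. Slc1a4, at chr11:20332664-20332963 on the minus strand, is shown as the carrier with a match among the 4 that were low in VpR126, and Slc7a7, at chr14:54417895-54418194 on the minus strand, as the carrier that rose; matches are in capitals, at position -4 in Slc1a4 (on the reverse strand, as TTGCATCA) and at -141 (TGATGAAA) and -1 (TGATGCAA) in Slc7a7:
Slc1a4: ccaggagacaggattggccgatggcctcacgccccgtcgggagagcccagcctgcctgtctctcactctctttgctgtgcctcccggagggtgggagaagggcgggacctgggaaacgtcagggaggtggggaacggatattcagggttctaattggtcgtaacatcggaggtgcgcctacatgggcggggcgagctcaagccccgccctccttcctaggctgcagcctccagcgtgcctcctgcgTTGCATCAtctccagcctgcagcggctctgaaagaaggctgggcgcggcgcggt
Slc7a7: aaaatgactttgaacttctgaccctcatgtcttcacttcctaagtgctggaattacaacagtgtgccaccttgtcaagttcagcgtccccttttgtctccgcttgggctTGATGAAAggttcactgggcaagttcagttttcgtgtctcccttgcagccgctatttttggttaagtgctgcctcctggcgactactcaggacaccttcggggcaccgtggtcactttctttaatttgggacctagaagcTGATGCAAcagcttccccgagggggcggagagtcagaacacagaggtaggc
The windows of Slc7a1 and Slc38a2 held no match with these letters.

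Slc1a2 and Slc6a4 were high in VpR126 alone. Slc1a2, a glutamate carrier best known from astrocytes, had 6.37 and 0.0940 CPM in the controls and 0.0732 (VpR83), 0.0486 (VpR99), 57.4 (VpR126) and 0.0553 CPM (VpR2020) in conditioned medium, so the controls also differed from each other (log2 fold change 2.13 ± 2.98, edgeR adjusted p = 0.58). Its log2 fold change was 7.21 without control replicate 1 and 1.18 without control replicate 2. Slc6a4, the serotonin carrier that loads platelets, had 0.800 and 1.69 CPM in the controls and 0 (VpR83), 0.0973 (VpR99), 26.2 (VpR126) and 0.166 CPM (VpR2020) in conditioned medium (log2 fold change 2.41 ± 2.65, edgeR adjusted p = 0.49). Neither was called over the 4 lines. Without VpR126, Slc6a4 was called lower (log2 fold change -3.79, edgeR adjusted p = 0.013; range 0.013 to 0.73 over the alternatives). Of 8 platelet and megakaryocyte markers, 2 were higher in conditioned medium (Pf4 and Ppbp) and 6 were not called. The summed level of all 8 was 68.1 to 76.9 CPM in the controls and 665 to 2341 CPM in the lines, where Pf4 and Ppbp made up most of it. The other 6 summed to 52.0 and 54.3 CPM in the controls and to 3.48 (VpR83), 10.2 (VpR99), 247 (VpR126) and 10.9 CPM (VpR2020), above the controls in VpR126 and below them in each other line. Without VpR126, 7 of the 8 markers could be tested, of which 2 were called higher and 4 lower. In VpR126, Itga2b was at 154 CPM and Gp1ba at 41.2 CPM, against at most 7.63 and 1.38 CPM in the other lines; their part in the Slc6a4 and Slc1a2 levels was not tested.

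Carriers outside the 7 families were described with a list of 22 genes, of which 17 were tested: 5 rose, 3 fell and 9 were not called, with a median log2 fold change of 0.34. The shares of 29.4% higher and 17.6% lower were close to those of all genes tested, 22.5% and 19.7%. The largest changes were in Mfsd12, which imports cysteine into lysosomes and melanosomes (log2 fold change 3.03 ± 0.20, edgeR adjusted p = 0.00035), Slc15a3, an endolysosomal carrier of histidine and peptides (log2 fold change 2.61 ± 0.32, edgeR adjusted p = 0.0019), Slc25a29, a mitochondrial carrier of basic amino acids (log2 fold change -2.26 ± 0.39, edgeR adjusted p = 0.0056), and Pqlc2, the lysosomal exporter of cationic amino acids (log2 fold change 2.0004 ± 0.25, edgeR adjusted p = 0.002). Mean levels were 19.1 ± 1.45 CPM (SD, n = 2) and 156 ± 21.4 CPM (SD, n = 4) for Mfsd12. For Slc15a3 they were 52.7 ± 0.688 and 322 ± 101 CPM. With either control left out, 3 genes of this list were called higher, and without control replicate 2 Slc25a29 lost its call (edgeR adjusted p = 0.063; range 4.8e-06 to 0.063).

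The amino acid sensing machinery upstream of mTORC1 was described with a list of 26 genes, all tested: 12 rose, 3 fell and 11 were not called, with a median log2 fold change of 0.47. That was 46.2% higher and 11.5% lower, against 22.5% and 19.7% of all genes tested. The largest changes were in Fnip2, a partner of folliculin (log2 fold change 3.96 ± 0.39, edgeR adjusted p = 0.0011), Castor2, of the arginine sensor pair (log2 fold change 2.90 ± 0.18, edgeR adjusted p = 0.00034), Rragb, a Rag GTPase (log2 fold change -2.39 ± 0.55, edgeR adjusted p = 0.015), and Sesn1, of the leucine-sensing sestrins (log2 fold change 2.23 ± 0.48, edgeR adjusted p = 0.012). Fnip2 had 21.6 and 23.1 CPM in the controls and 449 (VpR83), 297 (VpR99), 217 (VpR126) and 431 CPM (VpR2020) in conditioned medium, with no overlap. With either control left out, 5 genes of the list were called higher and 1 lower; Sesn1 (edgeR adjusted p = 0.087 and 0.09; range 1.2e-05 to 0.09) and Rragb (0.093 and 0.083; range 0.00047 to 0.093) then lost their calls. Slc38a9, which works with this machinery at the lysosome, was among the carriers not called.

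The other 29 transporters were too low to test. Of these, 4 (Slc1a6, Slc6a7, Slc7a9 and Slc7a12) had no counts in any library, 15 had 1 to 9 counts over the 6 libraries and 10 had more, up to 57. No untested member exceeded 1.71 CPM in a library, the value of Slc7a13 in VpR2020. Slc7a15 had 0 counts in both controls and 8, 24, 7 and 10 counts in VpR83, VpR99, VpR126 and VpR2020, at least 4.35-fold higher against 3 counts over the control group. It was called higher only when the filter on low counts was left out (edgeR adjusted p = 0.009).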

How the data were processed

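Bone marrow RNA was sequenced in 6 libraries made with a stranded TruSeq kit, per the labels' protocols. The values are raw read counts per Ensembl gene, deposited by the authors; Trimmomatic 0.38, STAR 2.5.2b and GRCm38 are named per the submitters' processing notes. How reads were counted, with which strand setting and annotation, is not given in the sources used here. Samples were grouped by their titles into 2 control libraries and 4 libraries of conditioned medium, and the 6 count columns were matched by name. Gene identifiers were matched to GENCODE M21 (45143 matched; the rest held 0.0538% to 0.0828% of a library's counts).

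Counts were filtered with edgeR 4.0.16 (filterByExpr, minimum count 10, in effect 0.376 CPM), scaled by TMM and tested with a quasi-likelihood fit with robust dispersions in R 4.3.3, with Benjamini-Hochberg adjustment over 15141 genes and a threshold of 0.05. CPM are TMM-scaled; detection limits use library totals. The SE was derived from the fold change and its F statistic (log2 fold change over root F), not fitted. The script was checked on simulated data. Alternatives were RLE, upper-quartile and library-total scaling, no filter, DESeq2 1.42.0, limma-voom 3.58.1, VpR99 thinned to the median total of the other libraries, and each library left out. VpR99 held 64.1% of the conditioned depth, so group bounds rest mostly on it.

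Every tested member is named, and of each pathway list at most 4 called genes, those with the largest log2 fold change in size; Asns, Phgdh and the genes behind counts of 5 or fewer were named after their values were seen. The members and lists were chosen with earlier results of these data known. Promoter sequences come from RefSeq (GRCm38.p6); 18 members had no window, those on chromosome 18 were not used, and 1 Slc7a gene is not reported here.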

Additional observations from a re-analysis of the deposited data

Results flagged for a closer look

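In VpR126, Slc1a2 was at 57.4 CPM, while the other 3 conditioned libraries were between 0.0486 and 0.0732 CPM, a gap to the nearest library larger than Dixon's 95% limit for 4 samples. In the same library Slc6a4 was at 26.2 CPM, with the other 3 between 0 and 0.166 CPM, past the same limit. These were 2 of 32 transporters checked, and chance alone flags about 1 in 20 such groups.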

How the results depend on the processing

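Of the 22 transporters called, 20 kept their call in every alternative that used all 6 libraries, and 11 in all 13 alternatives, leave-one-out fits included; the others are named with their values in the report. With either control left out, 1 control stands for its group and is assumed to vary like the conditioned libraries: 8 transporters were then called higher and 4 lower, and leaving out any library gave 8 to 14 higher (14 with all) and 4 to 9 lower (8 with all). Leaving out a library moved the count of all genes called from 6393 to between 2201 and 7031, the sensing list from 12 higher and 3 lower to 5 to 13 and 1 to 3, the response list from 2 and 1 to 1 to 4 and 0 to 2, and the other carriers from 5 and 3 to 3 to 6 and 1 to 3. DESeq2 called 4 response genes higher and scaling by library totals only called 2 lower. Signs turned for 4 carriers that were not called. The log2 fold change of Slc1a2 was -2.07 with voom, 7.21 without control replicate 1 and 1.18 without control replicate 2. The log2 fold change of Slc38a9 was -0.083 with upper-quartile scaling, -0.13 with library totals only and -0.080 without VpR126, up to 0.27 without VpR99. The log2 fold change of Slc6a4 was -2.29 with voom and -3.79 without VpR126, up to 3.05 without control replicate 2. The log2 fold change of Slc7a5 was 0.17 without VpR126, 0.03 without VpR2020 and -0.54 without VpR99. The cause was not tested. Upper-quartile scaling and library totals only shifted the median over all genes tested, on the log2 scale, to -0.22 and -0.26. No paired analysis was possible because the conditioned libraries carry no replicate number in the labels. Depth limits the 29 untested transporters, and VpR99, the deepest library, sets most of the precision at low levels.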
